A study of Mus musculus with 6 samples.

Results

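The mitochondrial ribosomal protein genes are the nuclear genes named Mrpl and Mrps, whose products form the large and the small subunit of the mitochondrial ribosome. Protein-coding genes whose symbol began with Mrpl or Mrps and a number were taken from a table of read counts of 44713 genes, which gave 76 genes, 47 of the large and 29 of the small subunit. Of these, 74 had enough reads to be tested, 46 of the large and 28 of the small subunit, among 12760 tested genes. Pancreatic islets were sequenced from 3 mice of each of 2 groups, called db/db and db/m, all of them males of 10 weeks. The db/db mouse lacks a working leptin receptor (Lepr) and becomes obese and diabetic, and its genotype is given as Lepr-/-. The db/m littermates served as controls. Their genotype is given as wild type, although the name db/m itself names the db allele. The strain is given as C57BL/6 in the sample descriptions and, for the db/db mice, as BKS.Cg-Dock7m+/+Leprdb/Nju in the methods of the study. That line also carries the coat-colour allele Dock7m, and which mice had this allele is not stated. The islets of both groups were freed with collagenase, purified on a Histopaque gradient, and sequenced after removal of ribosomal RNA. Both groups were fed a normal diet and killed with phenobarbital sodium.

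Mitochondria keep their own ribosomes to make the few proteins encoded by mitochondrial DNA, which are core subunits of the respiratory chain and of ATP synthase. The ribosomal RNAs come from mitochondrial DNA, while every protein of these ribosomes is encoded in the nucleus, made in the cytosol and imported. The small subunit reads the mRNA, and the large subunit joins the amino acids. In the β-cell, ATP made by the respiratory chain couples glucose to insulin secretion. Some members have a counterpart in bacterial ribosomes and others arose with the mitochondrion.

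Library totals lay between 15641797 and 20614531 counts. The label of islet cells was checked against markers of the pancreas. Genes of the exocrine acinar cell took 49.4 to 64.1% of the counts in the db/m mice and 65.9 to 70.9% in the db/db mice, and 28 of 29 acinar genes had a log2 fold change above 0. β-cell genes took 0.869 to 4.56% in the db/m and 0.197 to 0.699% in the db/db mice, with 12 of 15 lower at an unadjusted p under 0.05. Ins1, an insulin gene, was at 6616, 1614 and 1868 CPM (counts relative to the TMM-scaled library size) in the db/m and at 240, 580 and 554 CPM in the db/db mice, and all 15 β-cell and all 29 acinar genes had enough reads to be tested. Most of the counts in 5 of 6 libraries were thus of acinar genes. In RNA from whole islets, fewer cells of a type and less RNA per cell cannot be told apart. Nothing in the labels says how the mice were numbered or handled, and p-values measure the spread between these samples. Mouse 1 of each group stood apart, with TMM scaling factors (trimmed mean of M-values, which set the typical gene level between libraries) of 0.605 in db/db replicate 1 and 1.75 in db/m replicate 1, against 0.919 to 1.06 in the other mice.

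The promoter region is shown for 3 members, in bases before the first base of the RefSeq transcript (GRCm38.p6), read 5′ to 3′ on the strand of the gene. Mrpl12 and Mrpl17 were among the members with the smallest p that were higher in db/db, and Mrps9 was among the lower ones. The capitals mark matches to the motif of nuclear respiratory factor 1 (NRF1), a regulator of nuclear genes for mitochondria, and to the core of the ETS family, to which GABP belongs. The windows shown do not stand for the other members. Of those also higher, Mrps17, Mrpl14 and Mrpl55 held no such match, Mrps26 held 1 ETS match and Mrpl38 had no window. Of those also lower, Mrpl22 held 1 NRF1 and 1 ETS match, and Mrpl49, Mrpl1, Mrpl36 and Mrps25 held neither. Mrpl12, chr11:120484387-120484636, plus strand, held 1 NRF1 match.
Mrpl12: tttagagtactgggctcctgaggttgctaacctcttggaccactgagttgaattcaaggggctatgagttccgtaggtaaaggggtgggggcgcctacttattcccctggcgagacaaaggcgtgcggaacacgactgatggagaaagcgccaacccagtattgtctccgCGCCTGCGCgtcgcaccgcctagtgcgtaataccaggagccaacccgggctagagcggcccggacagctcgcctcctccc
Mrpl17, chr7:105811088-105811337, minus strand, held 1 ETS match and 2 NRF1 matches.
Mrpl17: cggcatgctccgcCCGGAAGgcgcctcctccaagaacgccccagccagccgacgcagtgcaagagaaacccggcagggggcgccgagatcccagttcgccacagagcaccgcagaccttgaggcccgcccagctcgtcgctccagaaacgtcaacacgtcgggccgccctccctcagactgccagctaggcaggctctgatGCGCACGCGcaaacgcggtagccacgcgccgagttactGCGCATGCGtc
Mrps9, chr1:42850983-42851232, plus strand, held no match.
Mrps9: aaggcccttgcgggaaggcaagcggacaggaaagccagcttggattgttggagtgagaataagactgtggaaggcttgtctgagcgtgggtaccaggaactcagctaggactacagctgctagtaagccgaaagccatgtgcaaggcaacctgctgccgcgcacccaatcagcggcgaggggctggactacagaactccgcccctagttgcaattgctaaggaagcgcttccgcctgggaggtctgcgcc

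Windows of 250 bases before the start of a RefSeq transcript were on hand for 67 of the 76 members (73 windows). Some lay inside the span of the gene, such as those of Mrpl36, Mrpl22 and Mrps23. Annotated exons reached into many windows, and covered all 250 bases in those of Mrpl39, Mrps10 and Mrpl51, among others. Each motif was searched on both strands. The NRF1 letters GCGCANGCG stood in 12 of the 73 windows (16.4%), against 10.8% of the 11496 windows of tested genes and 5.16% of all 32851 windows. By subunit, 10 of 46 Mrpl windows (21.7%) held them and 2 of 27 Mrps windows (7.41%), those of Mrps18b and Mrps21. The ETS letters CCGGAAG stood in 23.3% of member windows, 13.1% of windows of tested genes and 6.91% of all windows, with 23.9% for Mrpl and 22.2% for Mrps. The letters AAGATGGCG, bound by YY1, stood in 2 member windows (2.74%), those of Mrpl36 and Mrps11, in 1.19% of windows of tested genes and in 0.606% of all windows. A TATA box, TATAAA, stood in 6.85% of member windows, near the 6.27% of tested genes and below the 12.4% of all windows. Matches to NRF1, ETS and YY1 did not overlap each other in the member windows. A match describes the letters in these windows and is not a measured binding site.

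None of the 74 tested members differed between db/db and db/m at an adjusted p under 0.05 (edgeR quasi-likelihood test, Benjamini-Hochberg over all tested genes), where 79 of 12760 genes (0.619%) did. At an unadjusted p under 0.05, 7 members were higher in db/db and 0 lower, where 5.04% of all tested genes were higher and 9.89% lower. The members nevertheless leaned one way under TMM scaling. The log2 fold change was above 0 in 65 of 74 members (87.8%), against 49.9% of all tested genes, and its median was 0.40, a 1.32-fold difference, with the interquartile range of the members from 0.20 to 0.56. The median over all tested genes was 0.00. In 18 members every db/db value exceeded every db/m value, and in 0 members the reverse held, against 8.53% and 12.6% of all tested genes. In DESeq2 no member passed either, with 7 higher at an unadjusted p under 0.05. Without db/db replicate 1 the number at that p was 2 and the median 0.26, and without db/m replicate 2 the number was 4. Each single mouse left out moved the number of all genes called to between 10 and 333.

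**Figure D1:**
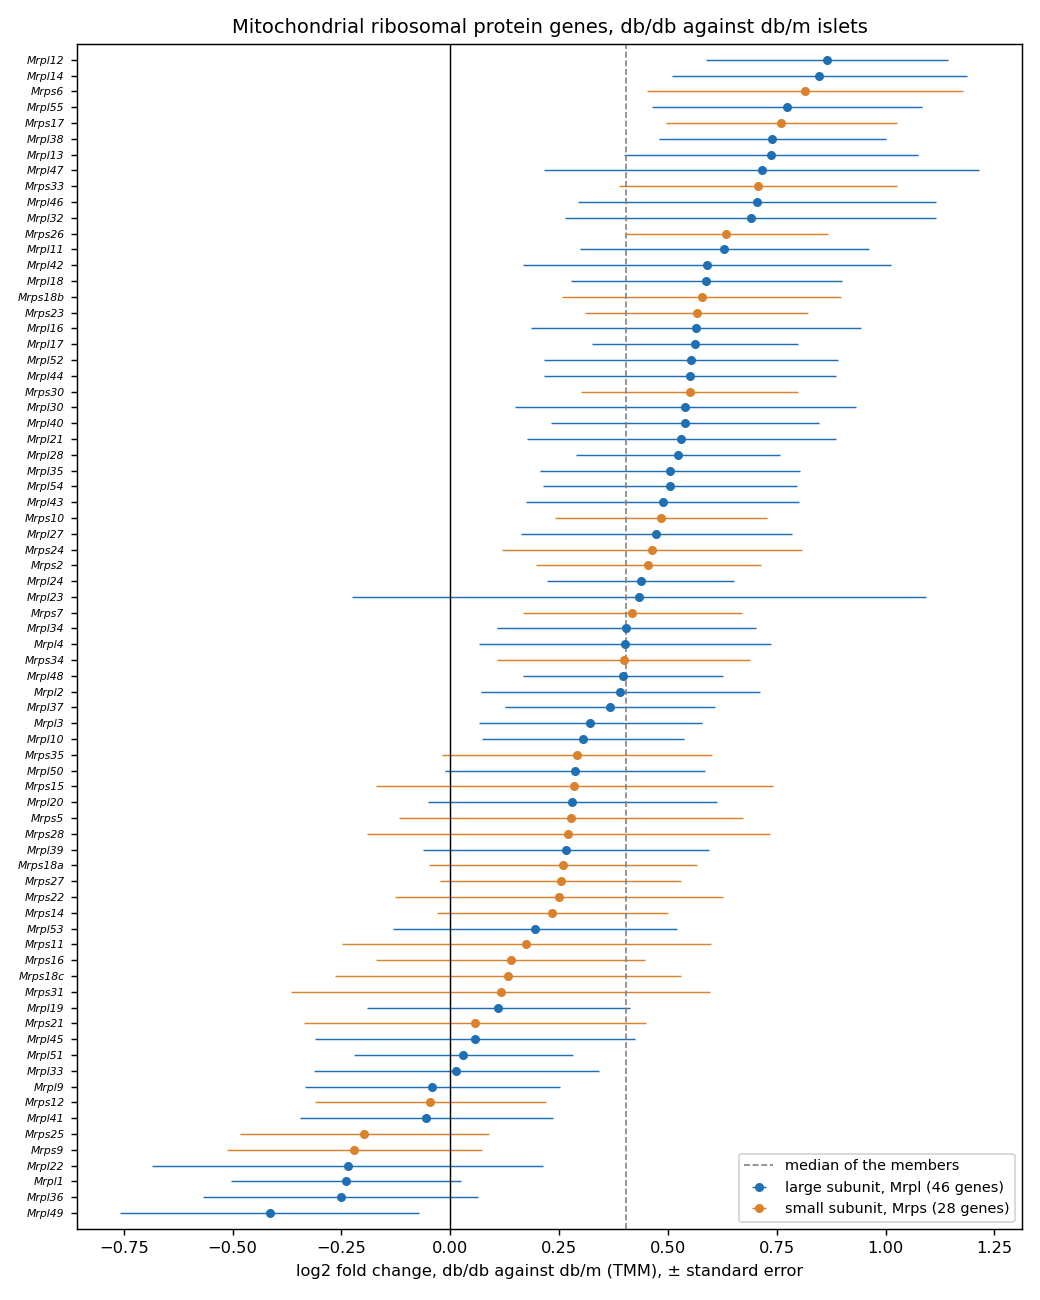
Each point is the log2 fold change of 1 tested gene between 3 db/db and 3 db/m mice, with its standard error as a bar, in blue for the large and in orange for the small subunit. Most points lie right of 0, the dashed line marks the median of 0.40, and no gene passed an adjusted p under 0.05.

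The direction rested on how the libraries were scaled. The mean log2 CPM over the 74 members, TMM-scaled, was 2.94, 2.56 and 2.55 in db/db replicates 1 to 3 and 2.21, 2.20 and 2.57 in db/m replicates 1 to 3. The groups overlapped through db/m replicate 3, which lay level with db/db replicates 2 and 3. Db/db replicate 1 had the highest value of the 6 mice in 49 of the 74 members (66.2%), against 23.6% of all tested genes, while db/m replicates 1 and 2 had the lowest in 31 and 26 members. Scaled by library size alone, the means were 2.22, 2.55 and 2.43 in db/db and 3.01, 2.29 and 2.53 in db/m. On that scale db/m replicate 1 was the highest and db/db replicate 1 the lowest, the reverse of their places under TMM. The median log2 fold change of the members was then -0.19 with 15 of 74 above 0, but that of all tested genes moved to -0.59, so that the members stood 0.40 above it under either scaling.

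As a share of all counts, the 76 members took 0.0425, 0.0539 and 0.0482% in db/db and 0.0696, 0.0442 and 0.0501% in db/m, and the groups overlapped. The 95% Clopper-Pearson interval of the share in db/db replicate 1 ran from 0.0416 to 0.0434%, which covers counting error only. With the 29 acinar genes taken out of the total, the members took 0.146, 0.164 and 0.141% in db/db and 0.137, 0.111 and 0.139% in db/m. On this base the db/db mice lay above the db/m mice without overlap, by a small margin between db/db replicate 3 and db/m replicate 3. Any member counts from acinar cells stayed in, so this share can rise with the acinar share alone. The acinar share was itself higher in each db/db mouse than in any db/m mouse, so the order on this base cannot be told apart from it. The acinar score was the mean log2 level of the acinar genes after TMM scaling. It was 13.2, 12.3 and 12.6 in db/db and 11.0, 12.1 and 12.3 in db/m. Db/db replicate 1 was highest in both this score and the TMM-scaled member level, but the same TMM factor enters both. In raw counts it had the highest acinar share (70.9%) and the lowest member share (0.0425%), and these shares are parts of 1 total. With the acinar score in the model, the median of the members was 0.10, with 46 of 74 above 0 and 2 higher at an unadjusted p under 0.05. The part of the acinar RNA in the result was not tested beyond this.

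**Figure D2:**
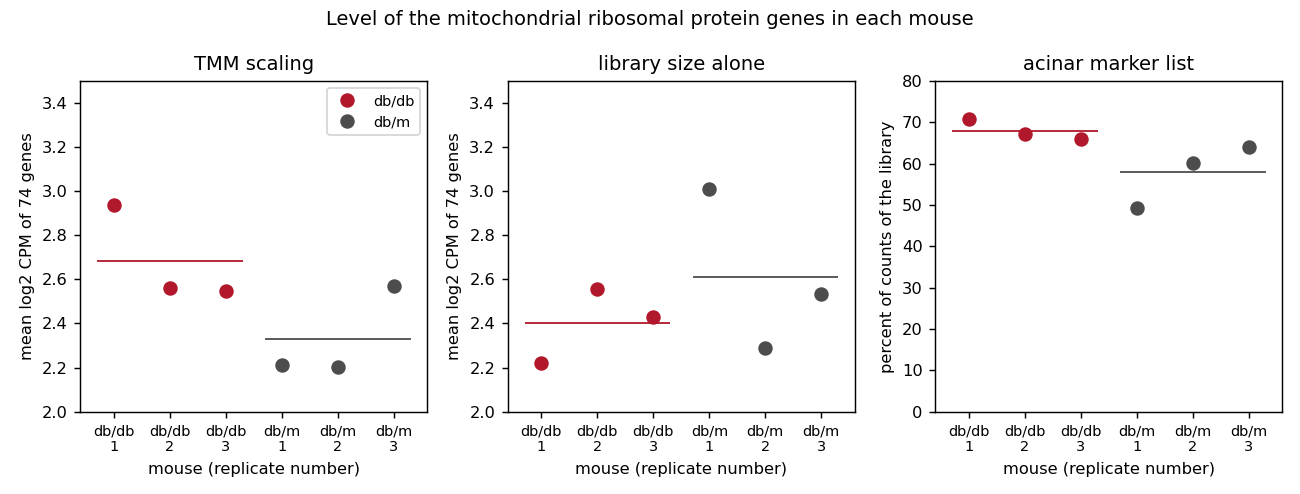
Points are single mice and lines are group means. The left and middle panels give the mean log2 CPM of the 74 tested genes with TMM scaling and with library size alone, and the right panel gives the percent of counts in acinar genes, which was 49.4 in db/m replicate 1 and at least 60.2 in the other mice.

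The large subunit had a median log2 fold change of 0.46, with 40 of 46 genes above 0, and the small subunit one of 0.28, with 25 of 28 above 0. The gap of 0.17 came to -0.0050 without db/m replicate 3 and lay between 0.08 and 0.22 without any other mouse. Per mouse, the mean log2 CPM of the large minus that of the small subunit was -0.03, -0.04 and 0.03 in db/db and -0.04, -0.06 and -0.11 in db/m. The groups overlapped slightly, at db/db replicate 2 and db/m replicate 1, and the difference of the group means was 0.06. In raw counts, which need no scaling between libraries, large-subunit genes made up 63.4, 61.4 and 63.9% of the member counts in db/db and 62.7, 62.7 and 61.6% in db/m. The lowest of the 6 values was thus a db/db mouse, and the balance of the subunits overlapped between groups. With Mrps18a and Mrps30 counted with the large subunit, where their proteins sit, and Mrps36 left out, the medians were 0.46 and 0.28. The 47 tested genes with a bacterial counterpart had a median of 0.42 and the 27 without one a median of 0.40.

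Of the 7 genes higher at an unadjusted p under 0.05, 5 encode the large subunit. Mrpl12, the protein of the stalk that engages translation factors and that also binds the mitochondrial RNA polymerase, had the smallest p. It lies at chr11:120484637-120488754 on the plus strand. Its level was 31.2, 23.4 and 20.7 CPM in db/db and 10.9, 12.2 and 18.3 CPM in db/m. All db/db mice were higher (log2 fold change 0.87 with a standard error, SE, of 0.28, unadjusted p = 0.0123, adjusted p = 0.191 by edgeR). About 10.3% of the 50-base stretches of its transcript were shared with other genes, of which the antisense gene Gm16755 shared the most. The counts do not state the strand. The proteins that hold the stalk were Mrpl10 and Mrpl11. Mrpl10, its anchor, had a log2 fold change of 0.31 and Mrpl11, at its base, one of 0.63, and the groups overlapped for both.

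Mrpl38, a protein of the mitochondrion-specific part of the large subunit, was at 15.7, 10.2 and 12.4 CPM in db/db and 6.35, 7.57 and 8.99 CPM in db/m. The groups did not overlap (log2 fold change 0.74, SE 0.26, adjusted p = 0.233 by edgeR). Mrpl14, which lies where the subunits meet, was at 8.91, 8.61 and 5.78 CPM in db/db and 2.83, 4.31 and 5.85 CPM in db/m. Here db/m replicate 3 reached into the db/db range (log2 fold change 0.85, SE 0.34, adjusted p = 0.286 by edgeR). Mrpl55, the counterpart of bacterial protein L31, was at 7.63, 5.02 and 5.45 CPM in db/db and 3.74, 2.74 and 4.06 CPM in db/m. The groups lay apart (log2 fold change 0.77, SE 0.31, adjusted p = 0.286 by edgeR). Mrpl17, the counterpart of bacterial L17, was at 30.7, 25.0 and 21.4 CPM in db/db and 14.7, 19.2 and 18.3 CPM in db/m. The groups did not overlap, and the log2 fold change was 0.56 (SE 0.24, adjusted p = 0.307 by edgeR).

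Of the small subunit, Mrps17, the counterpart of a bacterial protein that binds the ribosomal RNA, was at 27.6, 21.7 and 19.4 CPM in db/db and 10.3, 13.1 and 17.2 CPM in db/m. All db/db mice were higher (log2 fold change 0.76, SE 0.26, adjusted p = 0.227 by edgeR). Mrps26, which has no bacterial counterpart, was at 11.8, 10.5 and 12.4 CPM in db/db and 8.59, 6.41 and 7.31 CPM in db/m. Its groups were also apart, with db/m replicate 1 the nearest (log2 fold change 0.63, SE 0.23, adjusted p = 0.249 by edgeR). Mrps12, part of the site that decodes the mRNA, was at 7.55, 6.16 and 5.45 CPM in db/db and 7.27, 5.47 and 6.99 CPM in db/m. The groups overlapped, with a log2 fold change of -0.05.

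The symbols Mrps18a, Mrps18b and Mrps18c name paralogs of 1 bacterial protein, of which Mrps18a went to the large subunit. Their log2 fold changes were 0.26, 0.58 and 0.13, each with overlapping groups. Of the 50-base stretches of Mrps18b, 63.7% were shared with other genes, of which Gm16279 shared the most. Mrps30, also a large-subunit protein in spite of its name, was at 14.4, 10.7 and 10.4 CPM in db/db and 6.68, 8.79 and 8.77 CPM in db/m. These groups did not overlap, and the log2 fold change of 0.55 had an adjusted p of 0.342 by edgeR. Mrps36, now known as a subunit of the 2-oxoglutarate dehydrogenase complex, was not tested, with counts of 2, 10 and 9 in db/db and 4, 6 and 5 in db/m. Mrpl15, a core protein of the large subunit, was not tested either. It had 0 counts in all 3 db/db mice and in db/m replicates 1 and 2, and 6 counts in db/m replicate 3. On the TMM scale, 3 counts correspond to 0.110 to 0.241 CPM, depending on the library. Mrpl15 overlaps the gene Gm37144 on the same strand. Whether its reads were lost in the counting was not tested, so these counts do not show that its RNA was absent.

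Together with Mrps12, 9 members had a log2 fold change below 0, 6 of the large and 3 of the small subunit, and none of them had groups that lay apart on the CPM scale. Mrpl49, a mitochondrion-specific protein of the large subunit, was at 2.89, 2.15 and 3.63 CPM in db/db and 4.59, 3.26 and 3.68 CPM in db/m. Db/db replicate 3 lay inside the db/m range (log2 fold change -0.41, SE 0.34, adjusted p = 0.603 by edgeR). Mrpl1, of the mobile stalk at the tRNA exit, had a log2 fold change of -0.24, Mrpl36 one of -0.25 and Mrpl22, which lines the exit tunnel, one of -0.24. In the small subunit, Mrps9 was at -0.22 and Mrps25 at -0.20. Of the 50-base stretches of Mrps25, 73.9% were shared with other genes, of which Nr2c2 on the opposite strand shared the most.

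Shares within the member counts compare members with each other and do not depend on the scaling. Mrpl12 made up 4.44, 4.32 and 3.95% of the member counts in db/db and 2.73, 2.93 and 3.55% in db/m, a ratio of 1.38. Mrps17 made up 3.87 ± 0.154% in db/db and 3.02 ± 0.398% in db/m (SD, n = 3 each), a ratio of 1.28. The db/db mice had the higher share without overlap in both, and also in Mrpl38 (ratio 1.26) and Mrps6 (ratio 1.31), a small-subunit protein noticed after its values were seen. Mrpl49 went the other way, at 0.411, 0.396 and 0.692% in db/db and 1.15, 0.784 and 0.714% in db/m, a ratio of 0.566. Lower shares without overlap were also found for Mrps9 (0.637), Mrpl36 (0.644), Mrpl1 (0.652), Mrpl22 (0.656), Mrps25 (0.665) and Mrps12 (0.723). Mrpl51 (0.783) and Mrpl37 (0.967), noticed after their values were seen, complete the 9 with a lower share, against 4 with a higher share. Set against the member total in the same way, 25.7% of all tested genes were lower without overlap and 2.21% were higher. The members are centred on their own total by this measure and all genes are not. These percentages of all genes are thus no background for the 9 lower and 4 higher among 76 members.

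**Figure D3:**
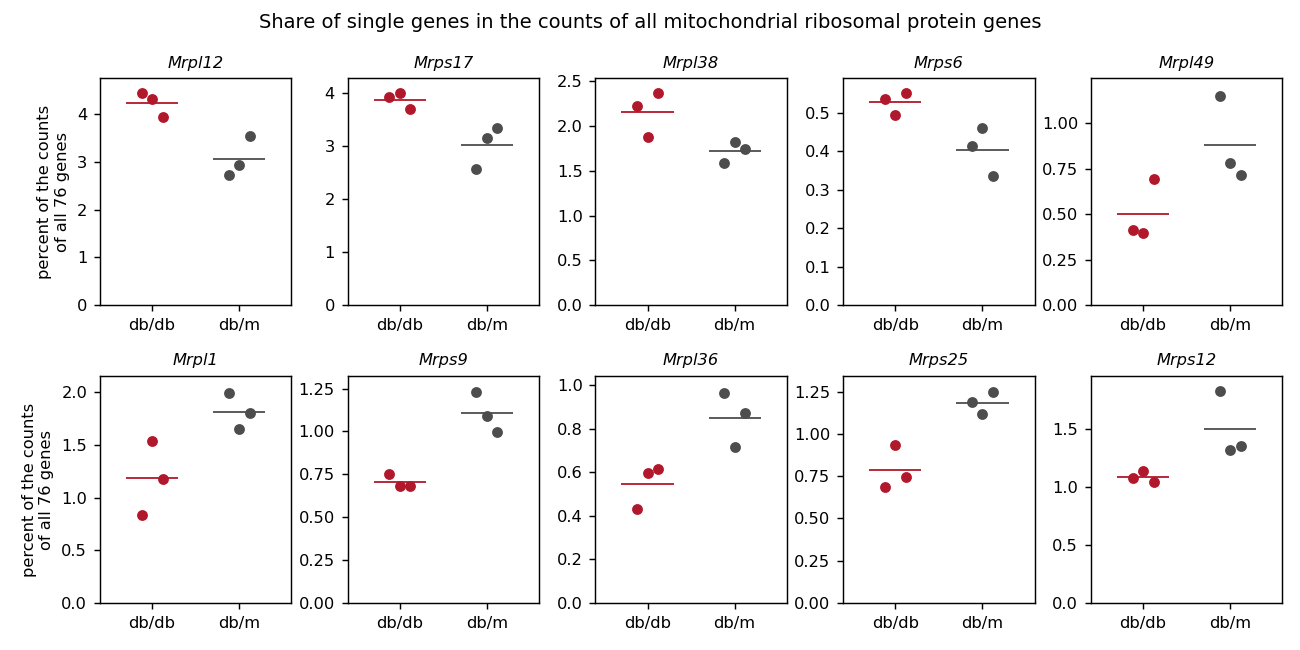
Points are single mice and lines group means of the percent of the counts of all 76 genes that fell on 1 gene, on axes that start at 0. Mrpl12, Mrps17, Mrpl38 and Mrps6 lie higher in db/db, and Mrpl49, Mrpl1, Mrps9, Mrpl36, Mrps25 and Mrps12 lie lower, without overlap in any of them.

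Levels of different members were compared per length of transcript (RPKM), with the median length of the protein-coding transcripts of each gene. The tested members ran from 0.724 to 29.0 RPKM, with a median of 6.15 for the large and 3.83 for the small subunit. The highest of the large subunit were Mrpl17 (34.6 ± 6.35 RPKM in db/db and 23.4 ± 3.20 in db/m, SD, n = 3 each), Mrpl30 (31.8 ± 12.8 and 21.9 ± 9.01) and Mrpl12 (19.1 ± 4.15 and 10.5 ± 3.01). Mrpl17 and Mrpl30 did not differ beyond this spread. In the small subunit the order was Mrps17 (26.9 ± 4.96 and 15.9 ± 4.10), Mrps21 (19.4 ± 11.5 and 18.6 ± 3.09) and Mrps23 (19.4 ± 5.03 and 13.1 ± 0.921), and these neighbours overlapped as well. The lowest were Mrpl32 (0.724 RPKM over all 6 mice), Mrpl47 (0.829) and Mrpl19 (0.877) in the large, and Mrps25 (0.813), Mrps16 (1.80) and Mrps35 (2.03) in the small subunit. This order depended on the transcript model. With the longest transcript, Mrpl17 came to 2.95 and Mrps17 to 3.60 RPKM, and the highest were Mrps21 at 15.8 and Mrpl12 at 14.8 RPKM.

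The members were shorter than most genes, with a median longest transcript of 1302 bases against 3133 over tested genes. Over the 11769 tested genes of known length, the log2 fold change went with length at a Spearman rho of -0.25, and over the 74 members at -0.00. These are descriptions across genes of the same libraries. With offsets for length and GC content in the model, the median of the members was 0.22 and 56 of 74 were above 0. The part of transcript length in the result was not tested further.

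Of the other genes of mitochondrial translation, none passed an adjusted p under 0.05 in edgeR. The 7 proteins of the mitochondrial ribosome that carry other names had a median log2 fold change of 0.56, with Ict1, a peptidyl-tRNA hydrolase built into the large subunit, at 0.77 and Aurkaip1, of the small subunit, at 0.62, both higher at an unadjusted p under 0.05. Dap3, Ptcd3 and Gadd45gip1 of the same list lay at -0.17, -0.09 and -0.24. Among 19 translation factors the median was 0.14 and 1 gene was higher at that p, Oxa1l, the insertase that places new proteins in the inner membrane (0.91). Among 31 factors of ribosome assembly and rRNA modification the median was 0.15, with Noa1 (0.69) and Rbfa (0.64), both factors of small-subunit assembly, higher. Among 16 mitochondrial aminoacyl-tRNA synthetases it was 0.04, with Iars2 (0.55) higher. Among 15 genes of mitochondrial DNA transcription and replication it was 0.13, with the helicase Peo1 (0.66) higher. No gene of these lists was lower at that p. The medians of the lists depended on the setting. That of the ribosomal proteins with other names was -0.06 with library size alone, -0.11 with the acinar score and 0.14 without db/db replicate 1. Those of translation factors and of assembly factors were -0.43 and -0.48 with library size alone and -0.04 and -0.03 with the acinar score.

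Of 11 tested nuclear regulators of mitochondrial genes, none had an unadjusted p under 0.05. Esrra was at a log2 fold change of 0.55, Mycn at 0.39, Gabpa at 0.31, Myc at 0.25, Yy1 at 0.20, Gabpb1 at 0.17, Pprc1 at 0.16, Max at 0.02, Gabpb2 at -0.10, Ppargc1b at -0.21 and Ppargc1a at -0.25. The standard errors of these values ran up to 0.50, and the test of Gabpa, the DNA-binding part of GABP, gave an adjusted p of 0.623 by edgeR.

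The subunits of oxidative phosphorylation encoded in the nucleus, which assemble with the products of the mitochondrial ribosome, had a median of 0.26 over 73 genes. Of these, 6 were higher at an unadjusted p under 0.05, among them Uqcrc1 of complex III (0.87) and Ndufa10 of complex I (0.77), and 0 were lower. Over all tested genes, 5.04% were higher and 9.89% lower at that p. The 11 tested genes of mitochondrial DNA lay on the other side, with 0 of 11 above 0, a median of -0.75 and 3 lower at that p, ND6 (-0.97), ND4L (-1.35) and COX3 (-0.78). Their mean log2 CPM was 4.70, 4.53 and 4.94 in db/db and 4.69, 4.85 and 6.23 in db/m. One mouse, db/m replicate 3, stood far above the other mice, and without it the median of the list was 0.14. The members minus these genes, in mean log2 CPM, were at -1.77, -1.97 and -2.39 in db/db and -2.48, -2.65 and -3.66 in db/m. The difference was thus higher in each db/db mouse, with db/db replicate 3 and db/m replicate 1 the nearest. Genes of mitochondrial DNA took only 0.0825 to 0.340% of the counts of a library. How fully their RNA was counted was not tested, so this difference covers the 11 tested genes and not mitochondrial RNA as a whole.

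Under TMM scaling, lists outside the mitochondrion also lay above 0. Proteins of the cytosolic ribosome had a median of 0.53 over 76 genes, with 8 higher at an unadjusted p under 0.05 and 0 lower, led by Rpl29 (1.35) and Rps3 (0.88). The 31 proteasome subunits had a median of 0.22 with 2 higher, Psmb3 (0.60) and Psma7 (0.60). The share of all tested genes higher at that p was 5.04%, and the 2 proteasome genes lie near it. The members minus the cytosolic ribosomal proteins, in mean log2 CPM, were at -2.57, -1.93 and -2.28 in db/db and -1.92, -2.56 and -2.20 in db/m, and the groups overlapped. Against the nuclear-encoded subunits of oxidative phosphorylation they were at -1.12, -0.82 and -1.11 in db/db and -1.11, -1.14 and -1.13 in db/m, again with overlap. Without db/db replicate 1, the median was 0.23 for the cytosolic ribosomal proteins, 0.04 for oxidative phosphorylation, 0.10 for the proteasome and 0.26 for the members. With the acinar score the medians turned to -0.14 for the cytosolic ribosomal proteins, -0.03 for oxidative phosphorylation and -0.01 for the proteasome, where the members were at 0.10. With library size alone they were -0.11, -0.34 and -0.40, where all tested genes were at -0.59.

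**Figure D4:**
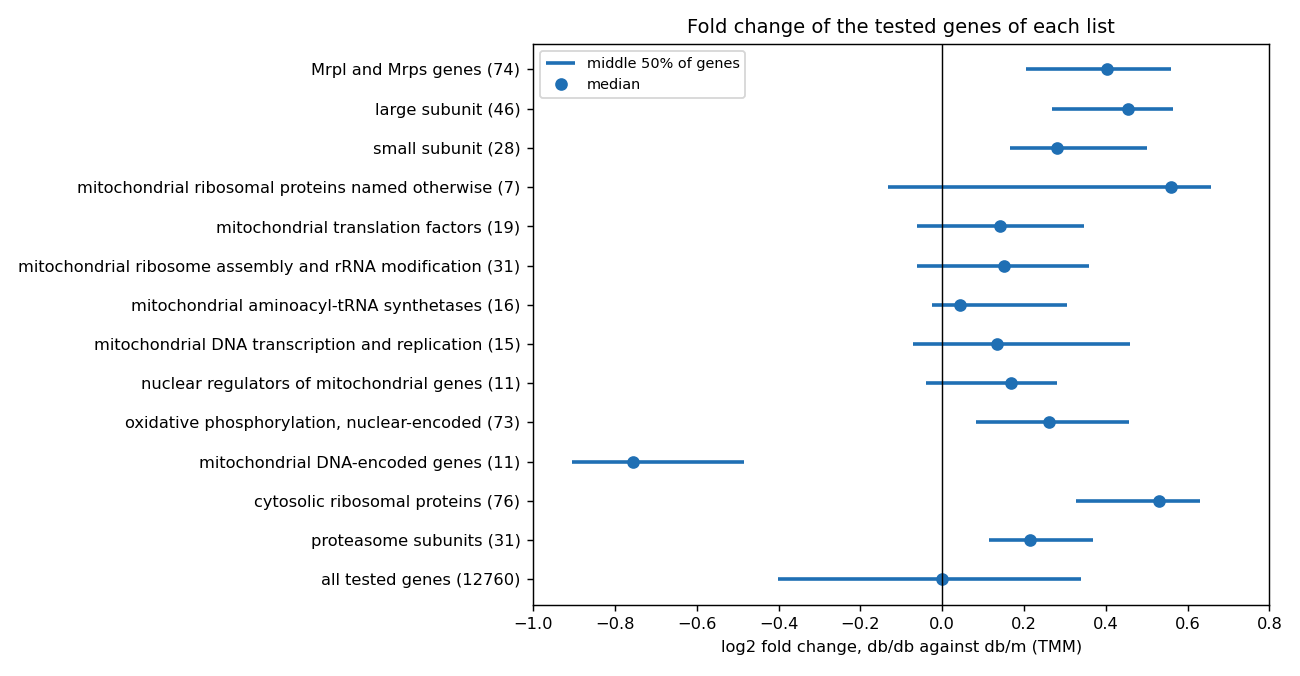
Points are the median log2 fold change of each gene list and bars span its interquartile range, with the number of tested genes in brackets. The lists of mitochondrial and cytosolic ribosomal proteins lie at 0.40 and 0.53, the genes of mitochondrial DNA at -0.75, and all tested genes at 0.00.

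Across the settings tried, the large subunit stayed at or above the small one except without db/m replicate 3, and both stood above the median of all tested genes in each setting. The distance to all genes was smallest with the acinar score (0.14 for the members) and with the offsets for length and GC content (0.21). In no setting did a member pass an adjusted p under 0.05.

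**Figure D5:**
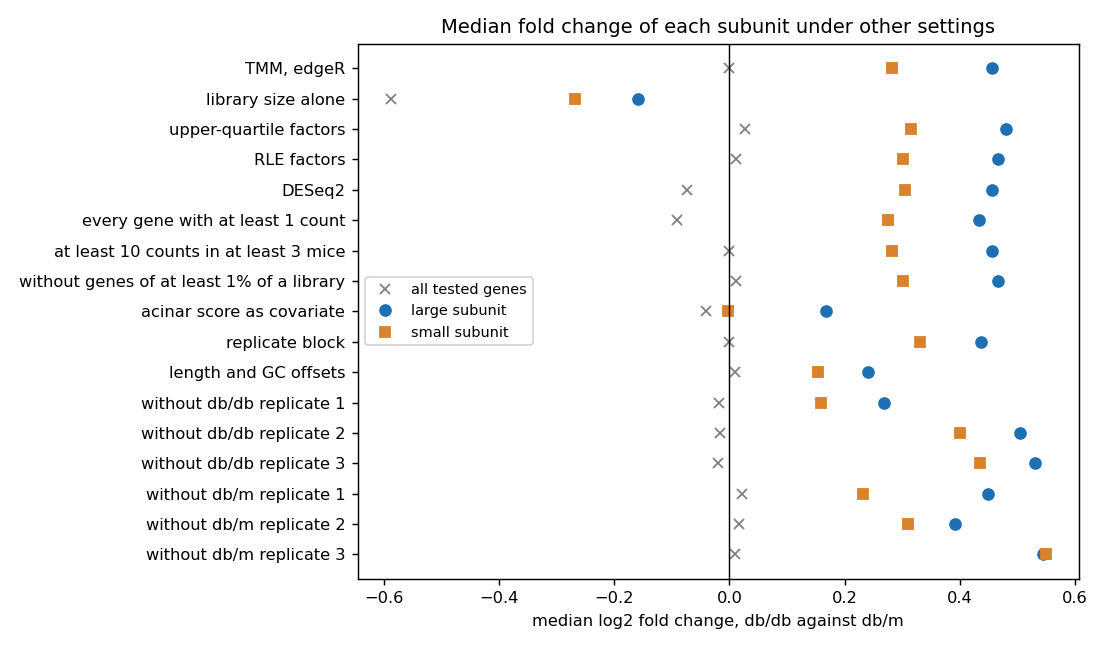
Each row is 1 setting, with the median log2 fold change of the large subunit (blue), of the small subunit (orange) and of all tested genes (grey crosses). Library size alone moves all 3 to the left, the acinar score brings the small subunit to 0.00, and without db/m replicate 3 the subunits coincide.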

How the data were processed

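Islet RNA of 3 db/db and 3 db/m mice was analysed. The table deposited by the authors held unnormalised read counts for each gene symbol and mouse, from reads mapped to mm10. The methods name TopHat and the submitters' processing notes HISAT2 2.0.4. The counting program, annotation and strand setting are not given in the sources used here.

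Counts were analysed with edgeR 4.0.16 in R 4.3.3 (filterByExpr, TMM factors, quasi-likelihood F-test, no covariates) and adjusted by Benjamini-Hochberg over 12760 genes, with a threshold of 0.05. Standard errors were derived from the log2 fold change and its F statistic. DESeq2 1.42.0 was an alternative. Levels in CPM used TMM library sizes, log2 values a prior count of 1. On simulated data with 200 of 12449 genes changed by 3 on the log2 scale, 188 genes were called, of which 173 were among the changed. When none was changed, 0 genes were called. A change of 3 was larger than that of any member, so recovery of changes as small as those of the members was not tested.

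Transcript lengths and shared 50-base stretches came from GENCODE M21, positions from RefSeq, both GRCm38. Motifs, shortened to at most 9 letters after the data were seen, were searched in 250 bases before the start. Bacterial counterparts and places in the ribosome were assigned from general knowledge. Members named were the 6 higher and 6 lower with the smallest p, the 3 highest and 3 lowest of each subunit by RPKM, the untested, and those of the stalk, the decoding site and the Mrps18, Mrps30 and Mrps36 genes. In other lists up to 4 genes with an unadjusted p under 0.05 were named, and all regulators. Mrpl17 was named by its level. The members and lists were chosen with earlier results of these data known, and 1 gene (Cpa3) was taken out of the acinar list after the data were seen. Counts of circRNAs were not analysed here. RPKM by the median transcript length was chosen after seeing the data. Alternatives were other scalings, filters, covariates, a replicate block and leaving out each mouse. The results of some single genes are not reported here.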

Additional observations from a re-analysis of the deposited data

How the results depend on the processing

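No member passed an adjusted p under 0.05 under any alternative, and the 7 higher members at an unadjusted p under 0.05 had no lower counterpart in any of them. Counts of all genes called went from 79 to 21 with library size alone, 52 with upper-quartile factors, 664 with DESeq2, 888 with every gene of at least 1 count, 44 with the acinar score and 122 with length and GC offsets, and to between 10 and 333 without 1 mouse. The 7 members became 0 with library size, 13 with upper-quartile factors, 12 with RLE factors, 11 without genes of at least 1% of a library and 2 with the acinar score, and 2 to 10 without 1 mouse. The median of the members, 0.40, was -0.19 with library size and 0.10 with the acinar score, and 0.26 to 0.54 without 1 mouse. The gap between the subunits, 0.17, was 0.11 with library size and 0.085 with length and GC offsets, and -0.0050 to 0.22 without 1 mouse. Among the other lists, 2 genes passed an adjusted p with DESeq2 and 2 with every gene of at least 1 count. The cause of these moves was not tested.

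No pairing of the mice by replicate number was seen. The deviations of same-numbered mice correlated at -0.50, -0.14 and -0.31, which cannot exclude a shared litter or batch. With the replicate block, 16 genes were called, 1 member was higher at an unadjusted p under 0.05, the median was 0.40, the gap was 0.11, and Mrps21 turned to -0.069.

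Of 28 named members with a fold change, 15 changed sign in at least 1 alternative. With library size, Mrpl17 was at -0.021, Mrpl30 at -0.011, Mrpl19 at -0.42, Mrps21 at -0.72, Mrps23 at -0.054, Mrps35 at -0.28, Mrps16 at -0.51, Mrpl10 at -0.33, Mrpl11 at -0.075, Mrps18a at -0.38, Mrps18c at -0.42 and Mrps30 at -0.033. With the acinar score, Mrpl30 was at -0.42, Mrpl47 at -0.18, Mrps21 at -0.21, Mrps35 at -0.15, Mrps16 at -0.029 and Mrps18c at -0.13. With length and GC offsets, Mrps21 was at -0.37, Mrps18a at -0.032 and Mrps18c at -0.089. Without 1 mouse, Mrps21 ran from -0.53 to 0.32, Mrps16 from -0.085 to 0.28, Mrps18c from -0.059 to 0.51, Mrps12 from -0.17 to 0.065 and Mrpl22 from -0.44 to 0.030. The values of Mrpl12, Mrps17, Mrpl38, Mrps26, Mrpl14 and Mrpl55 did not turn negative in the alternatives run, but shrank to as little as 0.30, 0.21, 0.15, 0.00052, 0.34 and 0.12, and those of Mrpl49 ran from -1.06 to -0.23.

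With a median of 96.4 counts per tested member and mouse, 3 mice a group and a common biological coefficient of variation of 0.355, a difference of the size of the median, 1.32-fold, was called for no single member.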

Other observations

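Many members start close to the start of a neighbour read in the other direction. Among the 74 tested members, 32 (43.2%) had the start of another protein-coding gene on the opposite strand within 1000 bases (GENCODE M21), against 1789 of 11031 tested protein-coding genes (16.2%). The share was 23 of 46 in the large and 9 of 28 in the small subunit. These counts include pairs with bases between the starts, such as Mrpl40 with Hira. They also include pairs whose genes overlap at their starts, such as Mrpl48 with Rab6a, Mrpl18 with Tcp1 and Mrpl36 with Ndufs6. The 25 tested partners that are not members, matched by symbol, had a median log2 fold change of 0.14 with 14 above 0. This match left out Twnk, the partner of Mrpl43, which was tested under its older symbol Peo1 and was higher. The members with and without a partner had medians of 0.41 and 0.40. Mrpl46 and Mrps11 are partners of each other on chromosome 7, at log2 fold changes of 0.70 and 0.18. Mrpl49 (-0.41) is paired with Fau (0.41), a cytosolic ribosomal protein gene, and Mrpl36 (-0.25) with Ndufs6 (0.55), a subunit of complex I. Mrps12 (-0.05) is paired with Sars2 (-0.01), the mitochondrial seryl-tRNA synthetase, and Mrpl40 (0.54) with Hira (-0.53), a histone chaperone that was lower at an unadjusted p of 0.0452. None of these genes passed an adjusted p under 0.05 in edgeR, and the pairs were picked after their values were seen.

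Some members are hard to count apart from other genes. Of the 76, 35 overlapped a gene on the opposite strand and 13 a gene on the same strand. Over 5% of the 50-base stretches were shared with other genes in 36 members, up to 100% in Mrpl53 and 66.7% in Mrpl23. The gene that shared the most was Gm42688 for Mrpl53 and a pseudogene of the same name, Mrpl23-ps1, for Mrpl23. The 4 pseudogenes of the family had at most 6 counts in any mouse.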
